A study of Mus musculus with 11 samples.

Results

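The miR-34 and miR-449 microRNAs are represented by 7 of the 655 probes of the bead chip, mmu-miR-34a, mmu-miR-34b-5p, mmu-miR-34b-3p, mmu-miR-34c, mmu-miR-449a, mmu-miR-449b and mmu-miR-449c. They were chosen by name, as the probes without a star whose names start with miR-34a, miR-34b, miR-34c or miR-449, and 4 of the 7 were detected often enough to be tested. The probe for the opposite arm of the miR-34c hairpin, miR-34c*, was followed beside them. Livers came from FVB/N mice aged 4 months, on a standard diet and fasted overnight, 5 wild type (WT) and 6 LivPGC-1β mice, which overexpress the transcriptional coactivator PGC-1β from a transgene in the liver. The promoter of the PGC-1β transgene, the number of founder lines and the sex of the mice are not given in the sources used here. Each liver had an array of its own, and all 11 arrays shared 1 chip. The question addressed was whether PGC-1β overexpression goes with other hepatic levels of these microRNAs.

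MiR-34a, miR-34b and miR-34c are known as direct transcriptional targets of the tumor suppressor p53. Their guide strands lower the products of cell cycle and survival genes, among them cyclin-dependent kinases, Bcl2 and Sirt1, and in the liver miR-34a is known for its increase in steatosis and for the loop that links it with SIRT1 and p53. The miR-449 hairpins are linked to E2F1, and together with miR-34b and miR-34c they are abundant in ciliated epithelia and in testis.

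The mature sequences are shown because the members are grouped by their seed, bases 2 to 8 from the 5′ end, which is set in capitals. They are RefSeq entries of assembly GRCm38.p6, matched by name for 6 of the 8 probes. A name that gives no arm was read as the 5p arm, and miR-34c* as the 3p arm. No mature sequence was found by name for miR-34c and miR-449b, so their seeds were not read.

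miR-34a, chr4:150068473-150068494, plus strand: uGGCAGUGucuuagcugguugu

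miR-34b-5p, chr9:51103610-51103632, minus strand: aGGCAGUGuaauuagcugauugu

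miR-449a, chr13:113037549-113037570, plus strand: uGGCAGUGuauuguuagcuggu

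miR-449c, chr13:113036008-113036028, plus strand: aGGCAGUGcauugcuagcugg

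miR-34b-3p, chr9:51103574-51103595, minus strand: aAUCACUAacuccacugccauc

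miR-34c*, chr9:51103044-51103065, minus strand: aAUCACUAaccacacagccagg

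The first 4 share the seed GGCAGUG, carried by 4 of the 1679 mature microRNAs in the RefSeq table, while miR-34b-3p and miR-34c* share the seed AUCACUA, carried by 2. Since miR-34c and miR-449b were not matched, these counts do not tell whether they carry either seed. Outside the seed, miR-34a and miR-34b-5p differ by an edit distance of 4 bases, miR-34a and miR-449a by 6, and miR-449a and miR-449c by 4. RefSeq lists the older name Mirn449b for both Mir449b and Mir449c, so that the names of these probes may not follow present use.

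The members come from 3 loci. In GRCm38.p6 the hairpin of miR-34a lies on chromosome 4 (150068454 to 150068555) outside any other annotated gene, and the nearest protein-coding gene is Gpr157, at 18947 bp. The hairpins of miR-34b (51103562 to 51103645) and miR-34c (51103034 to 51103110) sit 451 bp apart on chromosome 9, within the annotated bounds of both Btg4 and Hoatz. The hairpins of miR-449a (113037534 to 113037624), miR-449b (113037419 to 113037498) and miR-449c (113035983 to 113036091) lie on chromosome 13 inside Cdc20b. Whether these positions are exonic or intronic was not analysed here.

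Each value below is an intensity, the mean brightness of a probe's beads without background subtraction, quantile normalized over the 11 arrays and given as log2. A probe counted as detected where its detection p did not exceed 0.01, and was tested if detected on at least 5 arrays. Before normalization, array medians ran from 743 to 1036 in WT and from 619 to 871 in LivPGC-1β mice, with 467 to 494 and 444 to 508 probes detected. WT mice took chip positions 1 to 5 and LivPGC-1β mice 6 to 11, so that position and genotype run together. The 5 hepatocyte microRNAs checked were detected on every array, with a summed intensity of 103670 to 105180 in WT and 103510 to 105950 in LivPGC-1β mice. These sums are of quantile-normalized values, and that step gives every array the same set of values. Close sums of such bright probes therefore say little about hepatocyte content. The array of WT mouse 1 stood apart in its 4 striated muscle microRNAs (summed intensity 40284, at most 5968.5 in other mice) and that of WT mouse 3 in 13 X-linked testis microRNAs (31540, at most 5839.7 in other mice). In bulk liver, fewer cells of a type and less RNA per cell cannot be told apart.

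The members differed in how often they were detected. MiR-34a, miR-34b-5p and miR-34b-3p were detected in all 11 livers. MiR-34c was detected in 6, namely 2 WT and 4 LivPGC-1β livers (two-sided Fisher's exact test, p = 0.567), and miR-34c* in 5, namely 1 WT and 4 LivPGC-1β livers (two-sided Fisher's exact test, p = 0.242). MiR-449a was detected in 2 livers, WT mouse 4 and LivPGC-1β mouse 6, and miR-449b and miR-449c in none. LivPGC-1β mouse 3 just missed the limit for miR-449a, at a detection p of 0.01004.

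**Figure D1:**
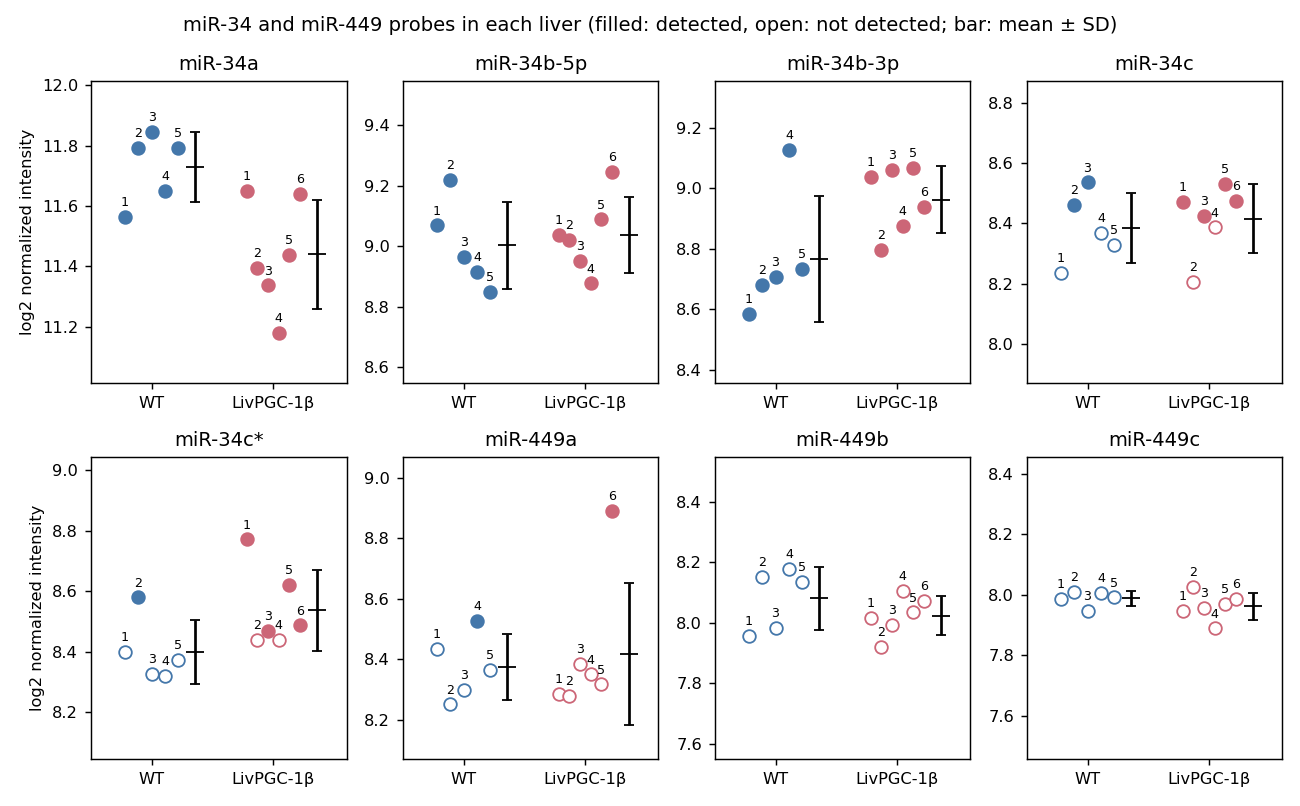
Log2 normalized intensity (vertical axis) of the 7 members and miR-34c* in each liver, WT in blue and LivPGC-1β in red, with the replicate number above each point, filled points where the probe was detected and a black bar for mean ± SD. Each panel has its own axis range of equal height. MiR-34a lay below every WT liver in 4 of 6 LivPGC-1β livers, whereas miR-449b and miR-449c show open points alone.

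MiR-34a, the member most studied in liver, was 1.22-fold lower in LivPGC-1β than in WT mice, but this difference did not pass the threshold over all probes. Its log2 intensity was 11.56, 11.79, 11.85, 11.65 and 11.79 in WT mice 1 to 5, and in LivPGC-1β mice it ran from 11.18 (mouse 4) over a median of 11.42 to 11.65 (mouse 1). LivPGC-1β mice 2 to 5 lay below every WT mouse, while mice 1 and 6 lay within the WT range. The raw intensity of the probe, before normalization, was 3332 to 4100 in WT and 2054 to 3672 in LivPGC-1β mice. The WT mean was 11.73 ± 0.12 (SD, n = 5) and the LivPGC-1β mean 11.44 ± 0.18 (SD, n = 6). The difference of −0.29 had an SE of 0.091, a 95% interval of −0.49 to −0.087 and an adjusted p of 0.181 (limma, Benjamini-Hochberg over 493 probes). In an exact permutation test of this probe alone, over all 462 splits of the arrays, the two-sided p was 0.0195. MiR-34a had the 36th lowest difference and the 26th smallest p of the 493 probes tested, and 5.07% of the tested probes were lower in LivPGC-1β mice at an exact p under 0.05. Without LivPGC-1β mouse 4, the lowest, the difference was −0.24 (adjusted p = 0.189, limma), and −0.34 ± 0.19 after adjustment for chip position (SE, adjusted p = 0.667, limma). Without WT mouse 1, whose array was high in the muscle microRNAs, the difference was −0.33. Without WT mouse 3, whose array was high in the testis microRNAs, it was −0.26.

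With quantile normalization and all livers, neither arm of the miR-34b hairpin had a lower mean in LivPGC-1β mice. The sign for miR-34b-5p depended on the normalization. MiR-34b-5p, which carries the miR-34a seed, had log2 intensities of 9.07, 9.22, 8.97, 8.91 and 8.85 in WT mice 1 to 5 and of 8.88 to 9.25, with a median of 9.03, in LivPGC-1β mice. The groups overlapped, and LivPGC-1β mouse 6 alone lay above the highest WT mouse. Means were 9.003 ± 0.15 (SD, n = 5) and 9.04 ± 0.13 (SD, n = 6), with a difference of 0.034 ± 0.079 (SE), a 95% interval of −0.14 to 0.21 and an adjusted p of 0.906 (limma).

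MiR-34b-3p, the arm with the other seed, read 8.58, 8.68, 8.71, 9.13 and 8.74 in WT mice 1 to 5 and 8.80 to 9.07, with a median of 8.99, in LivPGC-1β mice. All 6 LivPGC-1β livers lay above 4 of the 5 WT livers, and WT mouse 4 lay above all of them. Means were 8.77 ± 0.21 (SD, n = 5) and 8.96 ± 0.11 (SD, n = 6), with a difference of 0.20 ± 0.094 (SE), a 95% interval of −0.013 to 0.41 and an adjusted p of 0.430 (limma). In the exact permutation test the two-sided p was 0.0779. WT mouse 4 carried much of the spread, for without it the difference was 0.29 with an adjusted p of 0.0538 (limma). The value was 0.48 after normexp background correction, 0.032 with chip position as a covariate and 0.024 without normalization. On the arrays of LivPGC-1β mice 1 and 4 both miR-34b arms read the same raw intensity, 596 and 435.

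MiR-34c, from the hairpin beside miR-34b, stayed near the detection limit. It had log2 intensities of 8.24, 8.46, 8.54, 8.37 and 8.33 in WT mice 1 to 5 and of 8.21 to 8.53, with a median of 8.45, in LivPGC-1β mice, so that the groups overlapped over nearly their whole range. The difference was 0.030 ± 0.068 (SE), with a 95% interval of −0.12 to 0.18 and an adjusted p of 0.904 (limma). The opposite arm miR-34c*, with the miR-34b-3p seed, had a WT mean of 8.40 ± 0.11 (SD, n = 5) and a LivPGC-1β mean of 8.54 ± 0.13 (SD, n = 6). Its difference of 0.14 ± 0.072 (SE) had an adjusted p of 0.444 (limma). The probe just met the limit of 5 arrays, through 4 LivPGC-1β livers and 1 WT liver. That filter favors a higher LivPGC-1β mean, so no direction is drawn from this difference. The size of the difference depended on the processing, with 0.0055 without normalization, 0.25 after median scaling, 0.51 after normexp and 0.29 when chip position was in the fit. It was 0.091 without LivPGC-1β mouse 1, the highest, and 0.088 without WT mice 1, 3 and 5.

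The miR-449 probes were mostly at background. MiR-449a ran from 8.25 to 8.53 in WT and from 8.28 to 8.89 in LivPGC-1β mice, and the highest value came from LivPGC-1β mouse 6, 1 of the 2 livers in which it was detected. In WT mouse 3, whose array was high in the X-linked testis microRNAs, miR-449a lay 0.077 below and miR-34c 0.15 above the WT mean. MiR-449a was not detected there. The other chromosome 9 probes lay below their WT means in that liver, miR-34b-5p at −0.037, miR-34b-3p at −0.060 and miR-34c* at −0.073. MiR-449b ran from 7.96 to 8.18 in WT and from 7.92 to 8.11 in LivPGC-1β mice, and miR-449c from 7.95 to 8.01 and from 7.89 to 8.03. No fold change is given for these probes, and a difference in their level was not detectable here.

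Of the 4 tested members, 0 passed an adjusted p of 0.05, against 10 of the 493 probes tested, or 2.03% (8 higher and 2 lower in LivPGC-1β mice, limma). At an unadjusted p under 0.05, 1 member was lower, miR-34a, and 0 were higher, where 12 of the 493 probes tested (2.43%) were lower and 50 (10.1%) higher. The median difference was 0.032 over the 4 tested members and 0.0087 over all tested probes. The 4 were tested because they were detected, and the 3 miR-449 probes are not part of these counts.

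**Figure D2:**
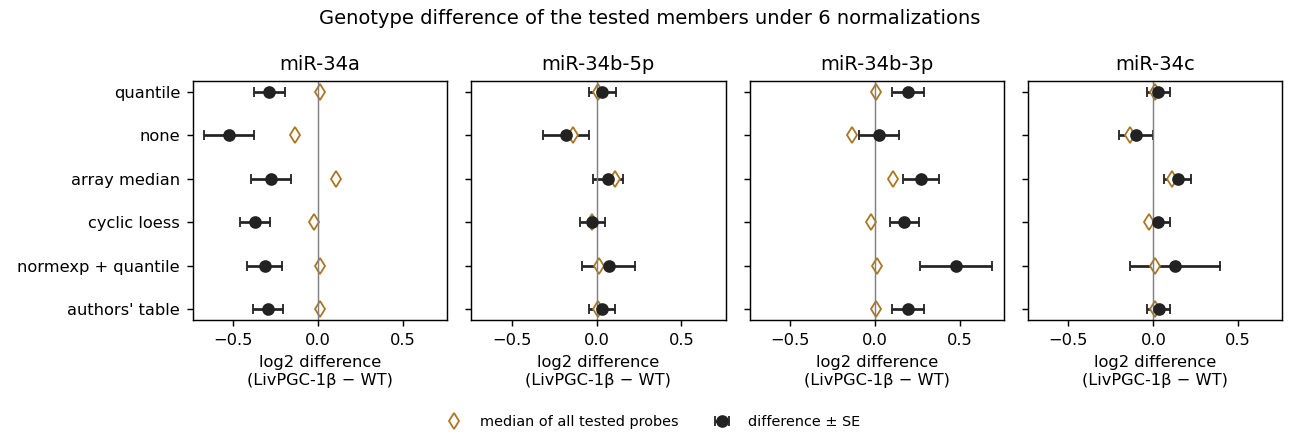
Difference between LivPGC-1β and WT mice on the log2 scale (horizontal axis) for the 4 tested members under 6 ways of normalizing, as points with SE bars, with the median over all tested probes as open diamonds. MiR-34a lay below 0 and below that median under each of them, from −0.52 without normalization to −0.28 with array median scaling, while miR-34b-5p and miR-34c changed sign.

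The direction of miR-34a held under each of the 6 normalizations in the plot, but its size did not. Without normalization the difference was −0.52 and the median of all probes −0.14, after array median scaling −0.28 and 0.11, and after cyclic loess −0.37 and −0.024. Set against that median, the difference of miR-34a was −0.39, −0.39 and −0.35 in these settings. The equality of the values without normalization and with median scaling is fixed by arithmetic, since that scaling shifts all probes of an array alike. For miR-34b-5p and miR-34c the sign itself depended on the normalization, and no direction is given for them. With array median scaling miR-34c was higher by 0.14 (two-sided exact permutation test, p = 0.0195), where the median of all probes was itself 0.11.

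A ratio of 2 members on the same array does not move with scaling of that array, but quantile normalization does more than scale. Ratios are of quantile-normalized values unless stated, and 3 pairs were compared among the members detected in every liver. The genotype difference of a ratio is that of its first member less that of its second, so it is not a separate result. Before normalization miR-34b-5p read 416 to 664 and miR-34b-3p 361 to 596, against 210 to 298 for miR-449b, detected in no liver. Background was not subtracted, so that a change in the miR-34b arms may read smaller. The log2 ratio of miR-34a over miR-34b-5p, guide strands with the same seed, differed by −0.32 in LivPGC-1β mice (WT 2.73 ± 0.19, SD, n = 5, LivPGC-1β 2.40 ± 0.11, SD, n = 6, two-sided exact permutation test, p = 0.00866). Values ran from 2.50 to 2.94 in WT and from 2.30 to 2.61 in LivPGC-1β mice, and 5 of the 6 LivPGC-1β livers, all but mouse 1, lay below every WT liver. When every other tested probe was set over miR-34b-5p in the same way, 3.46% were lower at an exact p under 0.05. From the intensities without normalization the difference in this ratio was −0.35 (exact p = 0.0260), and after normexp background correction −0.39 (exact p = 0.0325).

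The ratio of miR-34a over miR-34b-3p differed by −0.48 (WT 2.96 ± 0.25, SD, n = 5, LivPGC-1β 2.48 ± 0.18, SD, n = 6, two-sided exact permutation test, p = 0.0152). WT ran from 2.52, in mouse 4, to 3.14, and LivPGC-1β mice from 2.27 to 2.70, with 3 of 6 below every WT liver. Over miR-34b-3p, 18.5% of all other tested probes were lower, so that this ratio was shared by many probes. Between the arms of miR-34b the ratio differed by 0.16 (two-sided exact permutation test, p = 0.279), and without WT mouse 4 by 0.27 (exact p = 0.0429). After normexp background correction the differences were −0.80 (exact p = 0.0152) for miR-34a over miR-34b-3p and 0.41 (exact p = 0.223) for the arms.

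Leaving out any 1 mouse kept the exact p of both miR-34a ratios under 0.05. Without WT mice 1, 3 and 5 together, which earlier results of these data had set apart, the ratios were −0.25 over miR-34b-5p (exact p = 0.0714) and −0.34 over miR-34b-3p (exact p = 0.179), where the smallest p that 2 against 6 livers can give is 0.0357. These p-values are not adjusted, and with 5 and 6 livers the smallest an exact test can give is 0.00216.

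**Figure D3:**
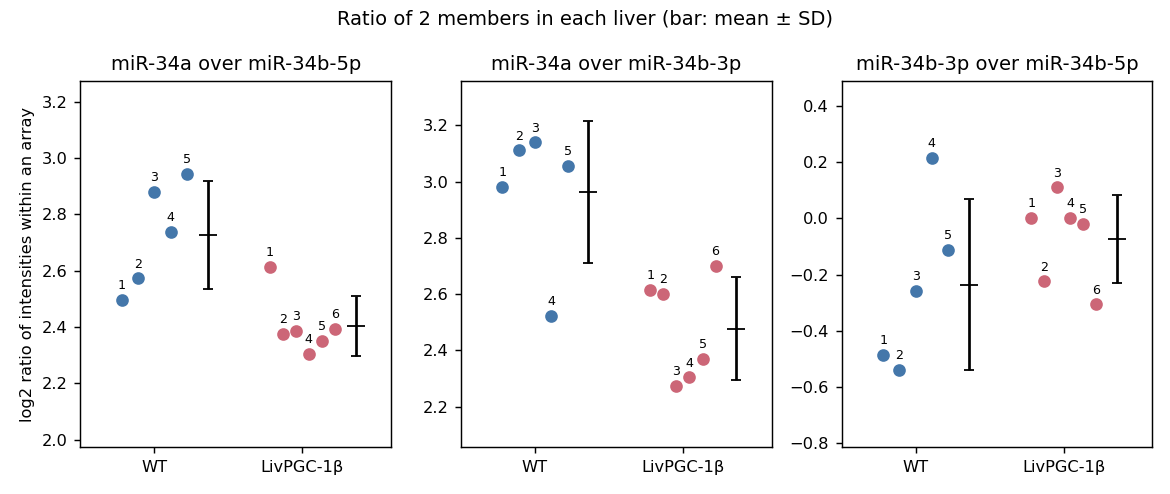
Log2 ratio of the intensities of 2 members within an array (vertical axis) for the 3 pairs of members detected in all 11 livers, WT in blue, LivPGC-1β in red and mean ± SD as black bars. The ratio of miR-34a over miR-34b-5p lay at 2.50 to 2.94 in WT and 2.30 to 2.61 in LivPGC-1β livers, and the ratio of the miR-34b arms overlapped between genotypes.

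Other microRNAs that p53 is known to induce or to help process were read from a list of 10, of which miR-605 was not found among the probes and 9 were tested. Of the 9, 0 passed an adjusted p of 0.05, 6 had a positive and 3 a negative difference, and the median was 0.035, against 264 positive, 229 negative and a median of 0.0087 over all 493 tested probes. At an unadjusted p under 0.05 (limma), 1 was higher and 1 lower, beside 10.1% and 2.43% of all tested probes. Several also belong to other lists, miR-192 and miR-194 to that of hepatocytes, miR-143 and miR-145 to that of stellate cells and fibroblasts, and miR-200c to that of bile duct and other epithelium.

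MiR-143, a microRNA of smooth muscle and stromal cells, was the one that was higher. Its WT mean was 14.34 ± 0.059 (SD, n = 5) and its LivPGC-1β mean 14.44 ± 0.032 (SD, n = 6), and all 6 LivPGC-1β livers lay above every WT liver, as was the case for 3.45% of the probes tested (difference 0.099, adjusted p = 0.202, limma). The stellate cell and fibroblast list, of which it is a part, summed to 74576 to 80571 in WT and 77593 to 82695 in LivPGC-1β mice, and its part in this difference was not tested. The difference of miR-143 was 0.058 without normalization and 0.30 after median scaling. MiR-215, which shares its seed with the hepatocyte microRNA miR-192, was the one that was lower, with a WT mean of 11.62 ± 0.098 (SD, n = 5) and a LivPGC-1β mean of 11.43 ± 0.11 (SD, n = 6) (difference −0.18, adjusted p = 0.202, limma). The groups overlapped, with 3 of 6 LivPGC-1β livers below every WT liver. Without normalization the difference of miR-215 was −0.38.

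The other 7 of the list lay closer to 0 or varied more between mice. MiR-200c, which represses Zeb1, differed by 0.27 (adjusted p = 0.573, limma), with a range of 10.65 to 11.07 in WT and 10.51 to 11.73 in LivPGC-1β mice. Its highest value was in LivPGC-1β mouse 1, whose array also had the highest summed intensity of the epithelial list (44029, at most 36010 in other mice). The differences of miR-15a and miR-16, which target Bcl2, were 0.071 and 0.029, those of miR-107 and miR-145 were 0.035 and 0.053, and those of miR-192 and miR-194 were −0.019 and −0.050. For miR-194, 4 of 6 LivPGC-1β livers lay below every WT liver (two-sided exact permutation test, p = 0.0476). For miR-15a, 4 of 6 lay above every WT liver (two-sided exact permutation test, p = 0.0541). Of all tested probes, 5.07% were lower at an exact p under 0.05.

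The probes whose pattern was most like that of each member were named by the highest Pearson correlation of log2 intensity over the 11 livers, 3 of 490 probes for each. The livers of both genotypes enter these correlations and share 1 chip and its normalization, so they are given as a description. For miR-34a these were miR-374 (r = 0.86, rho = 0.85), miR-154 (r = 0.82, rho = 0.74) and miR-382 (r = 0.80, rho = 0.65). Without LivPGC-1β mice 3 and 4, farthest from the median of miR-34a, r was 0.77, 0.53 and 0.59, so that the likeness to miR-154 and miR-382 leaned on those livers. Within WT and within LivPGC-1β mice r was 0.79 and 0.67 for miR-374, 0.63 and 0.90 for miR-154, and 0.59 and 0.95 for miR-382.

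MiR-34b-5p was most like miR-879 (r = 0.94, rho = 0.95), miR-679 (r = 0.87, rho = 0.92) and miR-299 (r = 0.85, rho = 0.83), and r was 0.85, 0.83 and 0.75 without LivPGC-1β mouse 6 and WT mouse 2. Within WT and within LivPGC-1β mice its r was 0.96 and 0.95 with miR-879, 0.95 and 0.93 with miR-679, and 0.88 and 0.86 with miR-299. MiR-34b-3p was most like miR-466d-3p (r = 0.86, rho = 0.86), miR-214* (r = 0.84, rho = 0.85) and miR-331-3p (r = 0.82, rho = 0.83), with r at 0.78, 0.78 and 0.67 without WT mice 1 and 4. Within WT and within LivPGC-1β mice these were 0.92 and 0.73, 0.79 and 0.78, and 0.92 and 0.30. No member was among the probes most like another member. Of the 9 probes, 4 (miR-154, miR-382, miR-679 and miR-299) are encoded on chromosome 12, between 109710638 and 109738498 in GRCm38.p6, as are 58 of the 493 tested probes, or 11.8%, on the same chromosome by the array's annotation.

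**Figure D4:**
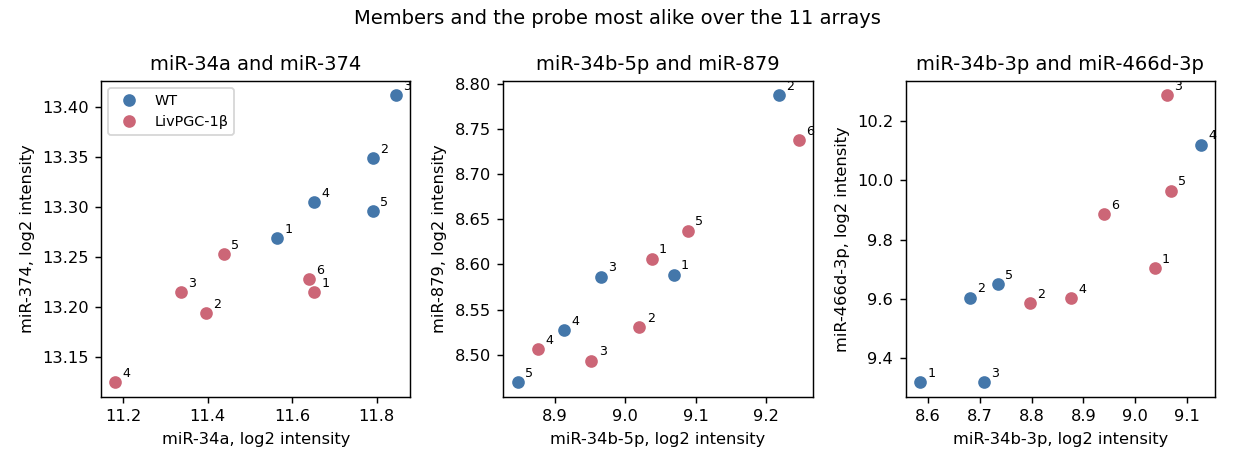
Log2 intensity of the most alike probe (vertical axis) against that of the member (horizontal axis) in each of 11 livers, WT in blue and LivPGC-1β in red, for the 3 members detected in every liver. The closest likeness was that of miR-34b-5p and miR-879 (r = 0.94), in which the genotypes intermingle.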

How the data were processed

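Hepatic RNA of 11 mice was hybridised to 1 Illumina microRNA bead chip. The authors read it with Genome Studio, in a version not given in the sources used here, and deposited for each array the intensity of 655 probes without normalization or background subtraction, with a detection p-value for each. Their quantile-normalized intensity table was deposited as well and served as an alternative. Although the methods name a detection filter at 0.01, 100 of the 655 probes passed it on no array. The intensities were quantile normalized over all probes and arrays (limma 3.58.1, R 4.3.3), set on the log2 scale and, for the 493 probes detected at 0.01 or less on at least 5 arrays, fitted by genotype with limma (lmFit, eBayes) and adjusted by Benjamini-Hochberg over all 493 at a threshold of 0.05. The methods name no array test. Single probes and within-array ratios were compared by two-sided exact permutation tests over the arrays, and detection by Fisher's exact test. The number of arrays limits the precision. The code was tested on simulated data. Figures were drawn with Python 3.11.15 and matplotlib 3.10.9.

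Named microRNAs were all members, opposite arms, a list of p53-responsive microRNAs and, for each member detected on every array, the 3 probes with the highest correlation. The members and lists were chosen with earlier results of these data known. Alternatives were other normalizations, the normexp method (offset 16), the authors' table, other detection filters, variance models without moderation or with trend or weights, a covariate for chip position, a replicate block, omission of each mouse in turn and of WT mice 1, 3 and 5 together, and, added after seeing the data, quantile normalization over the tested probes alone.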

Additional observations from a re-analysis of the deposited data

Results flagged for a closer look

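Over 34 groups (members, miR-34c* and the p53-responsive microRNAs, by genotype), 3 held a liver far from the others by Dixon's criterion at the 95% level, which chance alone meets in about 1 in 20 groups. MiR-34b-3p in WT was at 9.13 in mouse 4, with the next liver at 8.74 and the lowest at 8.58. MiR-449a in LivPGC-1β mice was at 8.89 in mouse 6, with the next at 8.38 and the lowest at 8.28. MiR-143 in LivPGC-1β mice was at 14.51 in mouse 5, with the next at 14.44 and the lowest at 14.42. These values carry no explanation here.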

How the results depend on the processing

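Under 27 alternatives, 0 members passed the adjusted threshold, and miR-34a was lower in all 27, from −0.52 to −0.24. Its adjusted p (limma) ran from 0.0848 with cyclic loess to 0.667 with chip position as a covariate. The unadjusted p (limma) of miR-34a was under 0.05 in 25. With single mice left out the difference of miR-34a ranged from −0.33 to −0.24, and that of miR-34b-3p from 0.15 to 0.29. MiR-34b-5p changed sign without normalization (−0.18), with cyclic loess (−0.026), array weights (−0.0080), the replicate block (−0.0077), without WT mice 1, 3 and 5 (−0.029), and over single mice left out (−0.0077 to 0.088). MiR-34c did so without normalization (−0.10), with chip position (−0.084), with normalization over tested probes alone, chosen after seeing the data (−0.0023), and over single mice left out (−0.0072 to 0.072). Without WT mice 1, 3 and 5 the ratios of miR-34a were −0.34 over miR-34b-3p and −0.25 over miR-34b-5p, and over single mice left out they ran from −0.59 to −0.44 and from −0.38 to −0.27, and the ratio of the miR-34b arms from 0.087 to 0.27. Of the p53-responsive microRNAs, miR-107 (−0.012), miR-145 (−0.00087), miR-15a (−0.077) and miR-16 (−0.060) changed sign without normalization, miR-16 (−0.025) with cyclic loess, and miR-192 (0.19) and miR-194 (0.12) with median scaling. At a detection p of 0.05, miR-449a was detected in 5 livers. The causes were not tested. Of all probes, 10 were called, against 0 without normalization or with chip position, 4 with median scaling, 3 without WT mice 1, 3 and 5, and 4 to 13 with single mice left out. Replicate numbers did not pair the mice, with deviations correlated at −0.13 to 0.068 over 5 pairs and 0 mice closest to their own number. With the replicate block miR-34a was at −0.33 (adjusted p = 0.315, limma) and 1 probe was called.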
